A study of Mus musculus with 27 samples.

Results

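Subplate neurons were followed here through 7 of their marker genes: Ccn2 (also written Ctgf), Nr4a2, Cplx3, Nxph4, Lpar1, Moxd1 and Tmem163. They were taken as known markers of these cells, and every probe that the platform annotation assigned to them was used. That gave 9 of the 45281 probes of the array, for 6 of the 7 genes. No annotated probe was found for Tmem163, and its level was not analysed here. A probe counted as above background on an array at a detection p-value under 0.01, and it was tested if at least 5 arrays met that limit. Of the 9 probes 6 did so, 2 for Ccn2, 1 for Nr4a2, 1 for Nxph4 and 2 for Lpar1, while the Cplx3 probe and both Moxd1 probes did not.

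The subplate is a layer of early-born neurons beneath the cortical plate. Its cells receive the first thalamic input to the cortex, guide the growth of axons between thalamus and cortex, and are largely lost after birth, apart from those that persist as layer 6b in rodents. The marker genes belong to different kinds of protein. Ccn2 encodes a secreted matrix protein, Nxph4 a secreted ligand of neurexins, Lpar1 a receptor for lysophosphatidic acid, Nr4a2 (Nurr1) an orphan nuclear receptor that also acts as an immediate early gene, Cplx3 a complexin that binds the vesicle fusion machinery, Moxd1 an enzyme related to dopamine beta-hydroxylase, and Tmem163 a zinc transporter of vesicles. None is restricted to the subplate: Ccn2 is also made by endothelial cells and fibroblasts, Nr4a2 by neurons of the claustrum, and Lpar1 by progenitors of the ventricular zone and by oligodendrocytes.

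RNA of mouse samples was hybridised to 27 Illumina BeadChip arrays, 1 per sample, in 5 groups. The P2 neurons (n = 5) were cells of the Tbr2 lineage, carrying green fluorescent protein (GFP) and sorted from brain cortex at postnatal day 2, with no genotype, reporter allele or Cre driver in the labels. The E16 cKO (n = 6) and E13 cKO (n = 5) groups were labelled Tbr2 conditional knockout, embryonic cortex, at embryonic days 16 and 13, with the Cre driver and the deleted part of the gene not given. The E16 embryo (n = 5) and E13 embryo (n = 6) groups were labelled only by stage, with WT in their column names and no tissue, and the titles of all embryonic samples call them a re-analysis. The protocol text names the GFP sort for every sample, although only the labels of the P2 neurons call the sample GFP positive. Nothing in the labels says that samples of 1 group came from separate animals, so the p-values measure the spread between these samples.

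The 3 kinds of sample were deposited in 3 tables, so a difference between cKO and embryo, or between P2 and embryo, cannot be told apart from a difference between tables. Only P2 was labelled GFP positive, and the labels leave unclear whether the embryonic samples were sorted as well. E16 against E13 lies within 1 table. Values are normalised log2 signals unless called deposited signals, and differences are log2 changes ± SE from a limma fit over all arrays, with p-values adjusted by Benjamini-Hochberg over all 20498 tested probes and called under 0.05. From 36.9% to 42.9% of probes were above background on each array. For Tbr2 itself, the gene Eomes, the first probe averaged 11.04 ± 0.46 in E16 cKO (SD, n = 6) against 10.45 ± 0.32 in E16 embryo (SD, n = 5), and 11.46 ± 0.10 in E13 cKO (SD, n = 5) against 11.20 ± 0.27 in E13 embryo (SD, n = 6; limma adjusted p = 0.348 and 0.865). The arrays labelled cKO therefore did not have less Eomes signal, and whether this probe lies in the deleted part is not known here. On the second principal component of the 22 embryonic arrays, array 2 of E13 cKO, at 10.7, lay among the E13 embryo arrays (5.16 to 15.7), and arrays 2 and 3 of E16 cKO, at -2.77 and 5.89, lay within the range of the E16 embryo arrays (-4.29 to 12.1). The other E16 cKO arrays lay between -19.8 and -4.61. For Nxph4 and Lpar1, results between genotypes are given with and without array 2 of E13 cKO and array 3 of E16 cKO together. For Nxph4 and the first Lpar1 probe they are also given at E16 without array 2 of E16 cKO alone. Results between genotypes for other genes are not given in this way.

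**Figure D1:**
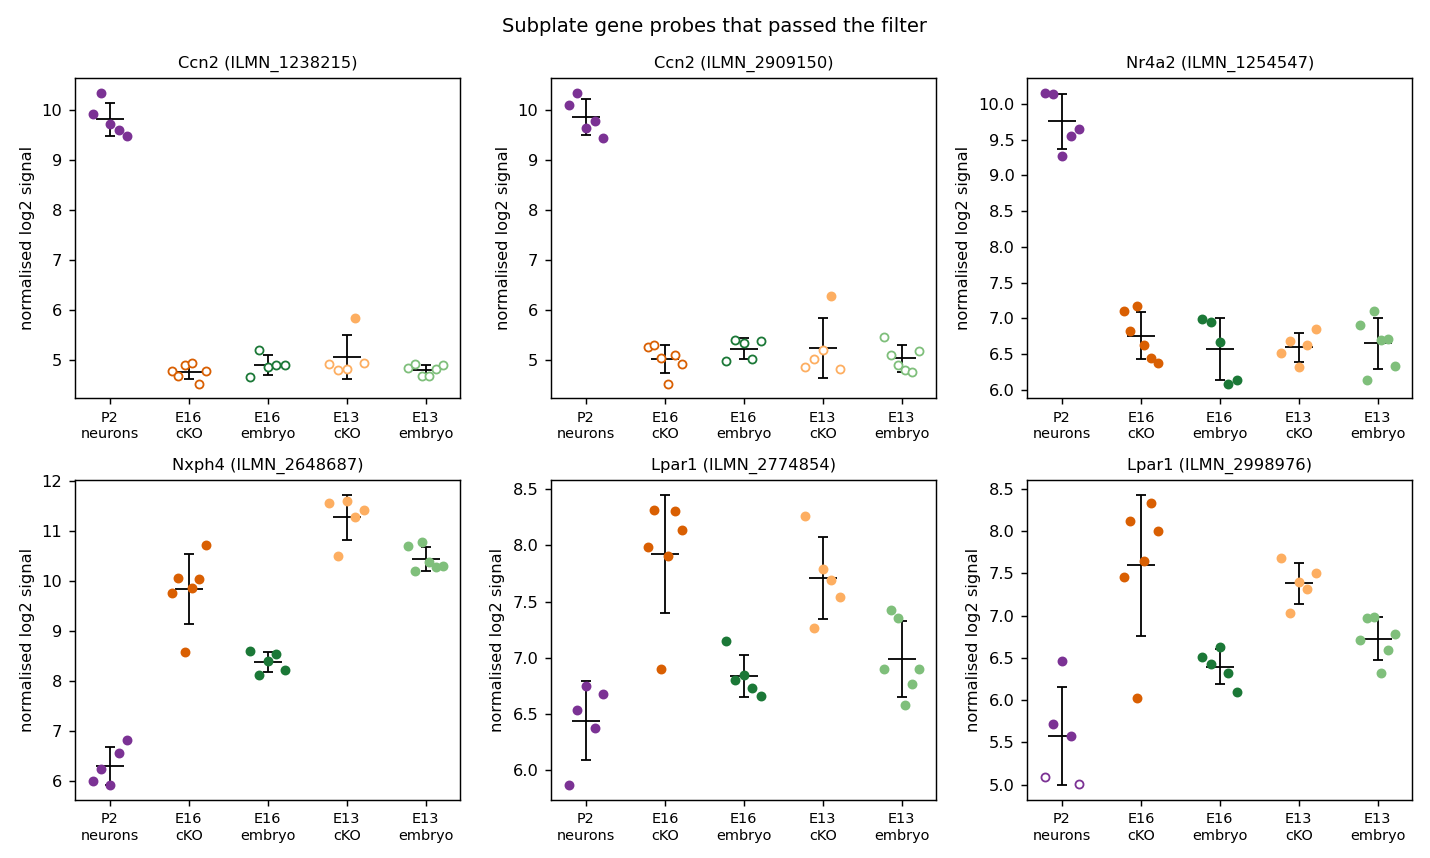
Normalised log2 signal of the 6 subplate gene probes that passed the filter, by group, each point 1 array, filled where the probe was above background and open where it was not; the bars give the mean and SD. Both Ccn2 probes and Nr4a2 stood high in the P2 neurons, Nxph4 stood highest at E13 and lowest in the P2 neurons, and both Lpar1 probes stood higher in most arrays labelled cKO than in the embryo arrays.

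The secreted ligands gave opposite patterns. Ccn2 was above background in all 5 P2 arrays on both probes. Its first probe (ILMN_1238215) gave 9.92, 10.34, 9.72, 9.61 and 9.48 in the P2 neurons, against 4.66, 5.21, 4.86, 4.89 and 4.90 in E16 embryo. The second probe (ILMN_2909150) gave 10.08, 10.33, 9.64, 9.77 and 9.42 in the P2 neurons, against 4.98, 5.40, 5.34, 5.01 and 5.38 in E16 embryo. Every P2 array lay far above every embryonic array, and none of the 11 embryo or 6 E16 cKO arrays held either probe above background. Ccn2 was therefore at least 17.6-fold higher in the P2 neurons than in E16 embryo by the first probe (limma adjusted p = 5.0e-19) and at least 18-fold higher by the second (adjusted p = 5.9e-16), where the bound sets the embryo arrays at the lowest signal that counted as above background. Against E13 embryo the bounds were 18.1-fold and 18.5-fold. Both Ccn2 probes passed the filter through the P2 arrays, so these p-values are no support for the difference.

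In E13 cKO, 1 array of 5 held Ccn2 above background. Array 4 gave 5.84 and 6.28 on the 2 probes, while the other 4 arrays lay between 4.80 and 4.95 on the first and between 4.82 and 5.20 on the second. Ccn2 did not pass the test between E13 cKO and E13 embryo (log2 changes of 0.26 ± 0.16 and 0.21 ± 0.21, adjusted p = 0.768 and 0.942). Without array 4 the second change was -0.05.

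Endothelial and fibroblast genes, which mark other cells that make Ccn2, moved with it. Of 10 endothelial and pericyte genes, 7 to 9 were above background in each P2 array, against 1 in each E16 embryo array and 0 or 1 in each E13 embryo array. Of 9 meninges and fibroblast genes, 4 to 7 were above background in each P2 array, against 0 in each E16 embryo array. The tested endothelial genes, 7 of 7, and meningeal genes, 4 of 4, rose in the P2 neurons relative to E16 embryo, against 30.2% risen and 41.3% fallen over all genes. Of these genes 6 endothelial and 4 meningeal ones passed the filter only through the P2 arrays, as Ccn2 did, so these counts are no support. Cldn5, a tight junction gene of blood vessels, was at least 35.7-fold higher, Flt1, a VEGF receptor gene, at least 13.5-fold and Dcn, a fibroblast matrix gene, at least 18.1-fold higher. The summed deposited signal of the endothelial list was 3325 to 10512 per P2 array, against 51.7 to 86.8 per E16 embryo array. In E13 cKO, array 4 held 4 endothelial and 5 meningeal genes above background, and its mean log2 signals over the tested members, 6.22 and 6.50, were above those of the other 4 arrays (4.82 to 4.98 and 4.81 to 4.96). The same array was also the highest of its group for the interneuron list (9.33 against 5.80 to 6.89), the radial glia list (8.59 against 7.53 to 8.05), the oligodendrocyte list (6.58 against 5.69 to 6.14) and the immediate early genes (7.29 against 6.37 to 6.75). The part of these cells in the Ccn2 signal was not tested. In bulk arrays, a change in the number of cells that make a transcript and a change in its amount per cell cannot be told apart.

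**Figure D2:**
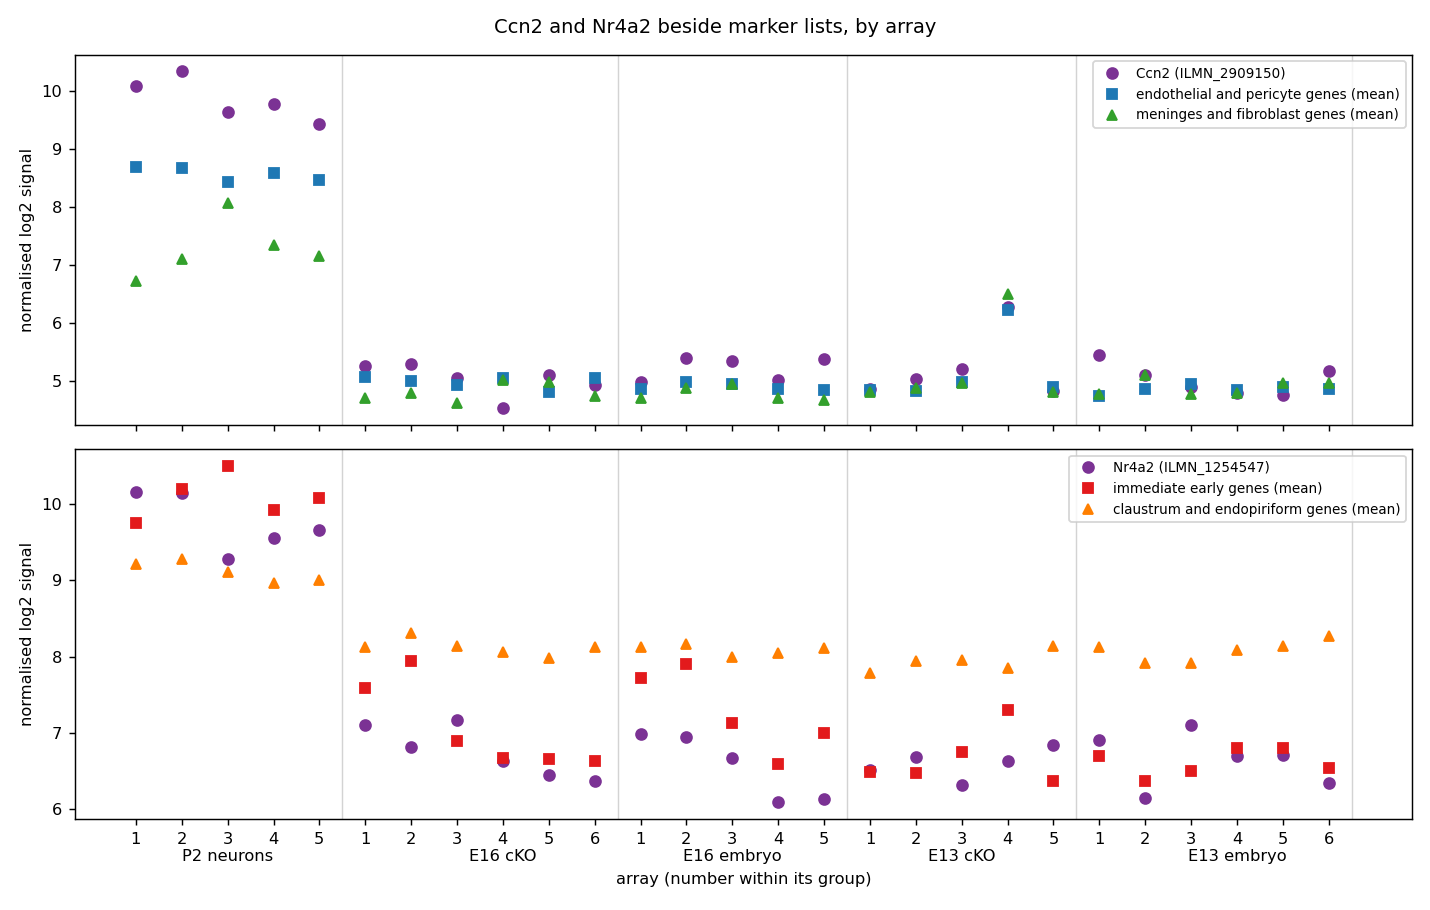
Normalised log2 signal of the second Ccn2 probe and of Nr4a2, each array 1 point, beside the mean over the tested members of marker lists. Ccn2, the endothelial list and the meningeal list were all high in the P2 neurons, and highest of the E13 cKO arrays in array 4; Nr4a2, the immediate early genes and the claustrum list were all high in the P2 neurons.

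Nxph4 had the opposite course and was above background on all 27 arrays. Its probe (ILMN_2648687) gave 6.00, 6.23, 5.91, 6.56 and 6.81 in the P2 neurons. In E16 cKO it gave 9.75, 10.05, 8.58, 9.86, 10.03 and 10.72, against 8.59, 8.11, 8.40, 8.54 and 8.22 in E16 embryo. In E13 cKO it gave 11.57, 10.50, 11.61, 11.27 and 11.42, against 10.70, 10.20, 10.77, 10.37, 10.28 and 10.30 in E13 embryo. The level fell with stage in both genotypes, was lowest in the P2 neurons, and was higher in most arrays labelled cKO than in the embryo arrays of their stage.

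Genes of intermediate progenitors, the dividing cells that make Tbr2, moved with Nxph4, and other lists fell between the stages as well. Of 9 listed genes 8 were tested, and 7 fell at E16 relative to E13 in the embryo arrays and 5 in the cKO arrays, against 11.7% and 13.4% of all genes. In the P2 neurons 8 of 8 fell relative to both E16 and E13 embryo, against 41.3% and 41.9%. The mean log2 signal of the list was 10.17, 10.24, 9.69, 10.09, 10.38 and 10.51 in E16 cKO, against 9.73 to 9.97 in E16 embryo, so that 5 of 6 cKO arrays lay above every embryo array and array 3 did not, as for Nxph4. It was 10.75 to 10.97 in E13 cKO, against 10.41 to 10.85 in E13 embryo, and 6.92 to 7.39 in the P2 neurons. Between genotypes 0 of the 8 were called at E16 and 1 was called higher at E13, against 0.206% and 0.638% higher over all genes. Of 6 tested Cajal-Retzius genes 5 fell at E16 in each table. Their median log2 changes were -2.73 (embryo) and -2.28 (cKO), against -0.77 and -0.58 for the progenitor list. Of 10 tested deep-layer genes 5 fell and 1 rose in each table. Of 8 tested thalamus and habenula genes 4 fell in the embryo arrays and 2 in the cKO arrays. Relative to E16 embryo, 4 Cajal-Retzius genes rose in the P2 neurons and 0 fell, against 30.2% and 41.3%. The part of any of these cells in the Nxph4 results was not tested.

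Within the embryo table, Nxph4 averaged 8.37 ± 0.20 at E16 (SD, n = 5) and 10.44 ± 0.24 at E13 (SD, n = 6), 4.18-fold lower at E16 (log2 change -2.06 ± 0.25, adjusted p = 1.1e-06), with no overlap between the stages. Within the cKO table it averaged 9.83 ± 0.70 at E16 (SD, n = 6) and 11.27 ± 0.45 at E13 (SD, n = 5), 2.71-fold lower at E16 (log2 change -1.44 ± 0.25, adjusted p = 1.2e-04), and 5 of 6 arrays at E16 lay below every array at E13. Of the 4 tested subplate genes Nxph4 alone was called between the stages, and it fell in both tables. Over all 10663 genes, 11.7% fell and 10.8% rose in the embryo arrays, and 13.4% fell and 10.8% rose in the cKO arrays. Ccn2, Nr4a2 and Lpar1 were not called between E16 and E13 in either table, with log2 changes between -0.33 and 0.22 over their probes, and Ccn2 was not above background at E16.

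The cKO arrays had more Nxph4 signal than the embryo arrays at E16, 2.75-fold (log2 change 1.46 ± 0.25, adjusted p = 0.0082), and 5 of 6 cKO arrays lay above every embryo array. The exception was array 3, at 8.58. At E13 the difference was 0.84 ± 0.25 (95% interval 0.32 to 1.35), which was not called (adjusted p = 0.138), and 4 of 5 cKO arrays lay above every embryo array, array 2 being the exception at 10.50. The change between genotypes was 0.62 ± 0.36 larger at E16 than at E13, a difference that did not pass the test (95% interval -0.11 to 1.36, adjusted p = 1.0). Fitted on the E16 cKO and E16 embryo arrays only, the same change of 1.46 was not called (adjusted p = 0.191). Without array 2 of E16 cKO alone the Nxph4 change was 1.42 (adjusted p = 0.026).

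Lpar1, the receptor, was higher in cKO arrays than in embryo arrays as well. Its first probe (ILMN_2774854) gave 7.99, 8.31, 6.90, 7.91, 8.30 and 8.14 in E16 cKO, against 7.15, 6.80, 6.85, 6.73 and 6.66 in E16 embryo. In E13 cKO it gave 8.26, 7.27, 7.79, 7.69 and 7.54, against 6.90, 7.43, 7.36, 6.58, 6.76 and 6.90 in E13 embryo. At both stages all cKO arrays but 1 lay above every embryo array, and the exceptions were again array 3 of E16 cKO and array 2 of E13 cKO.

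The first Lpar1 probe was 2.13-fold higher in E16 cKO than in E16 embryo (log2 change 1.09 ± 0.22, adjusted p = 0.021) and the second (ILMN_2998976) 2.30-fold higher (1.2 ± 0.28), which was not called (adjusted p = 0.070). On the second probe array 3 of E16 cKO, at 6.03, lay below all embryo arrays. That call on the first probe was lost when any 1 of 8 of the 11 E16 arrays was left out (arrays 1, 2, 5 and 6 of E16 cKO and arrays 2 to 5 of E16 embryo; adjusted p up to 0.070 with a change of at least 1.01, the value without array 2 of E16 cKO), and when only the E16 arrays were fitted (adjusted p = 0.191). At E13 the 2 probes differed by 0.72 ± 0.22 (adjusted p = 0.136) and 0.66 ± 0.28 (adjusted p = 0.490), and neither was called, although on the second probe all 5 cKO arrays, at 7.03 to 7.69, lay above all 6 embryo arrays, at 6.32 to 6.99. The interaction with stage was 0.37 ± 0.31 and 0.54 ± 0.40 on the 2 probes and was not called on either.

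Between cKO and embryo at E16, 2 of the 4 tested subplate genes were thus called higher and 0 lower, against 0.206% higher and 0.188% lower over all 10663 genes. At E13, 0 of the 4 were called, against 0.638% higher and 0.619% lower over all genes. For the interaction, 0 of 10663 genes were called by limma (0%), while 658 of the 20498 probes had an unadjusted p under 0.05. Without array 2 of E13 cKO and array 3 of E16 cKO, Nxph4 was 3.27-fold higher at E16 (log2 change 1.71 ± 0.18, adjusted p = 9.6e-07) and 2.04-fold higher at E13 (1.03 ± 0.18, adjusted p = 6.8e-04), and the first Lpar1 probe 2.45-fold (1.29 ± 0.17, adjusted p = 4.9e-05) and 1.78-fold (0.83 ± 0.18, adjusted p = 0.0058). The second Lpar1 probe was then called at E16 (1.52 ± 0.21, adjusted p = 6.8e-05) and not at E13 (0.75 ± 0.21, adjusted p = 0.060). Both were picked, after the data had been seen, because they resembled the embryo arrays, so dropping them favours a difference between the genotypes by construction. In that fit 1.08% of genes were higher at E16 and 1.83% at E13. Leaving out either of the 2 arrays alone was enough for Nxph4 and the first Lpar1 probe to be called at E13 (adjusted p from 0.0194 to 0.0451).

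Some genes of other structures were higher in cKO than in embryo arrays as well. Of 9 thalamus and habenula genes 8 were tested, and 2 rose in E16 cKO and 1 in E13 cKO, against 0.206% and 0.638% of all genes. The median log2 change over the 8 was 0.25 at E16 and 0.23 at E13. Gbx2, a transcription factor gene of the developing thalamus, gave 9.04, 9.44, 4.95, 9.49, 9.58 and 9.16 in E16 cKO, against 4.87 to 5.08 in E16 embryo, where 0 of 5 arrays held it above background. It was at least 7.61-fold higher (adjusted p = 0.0070), and Pou4f1, a habenula gene, at least 1.78-fold higher (adjusted p = 0.041). Both were at the embryo level in array 3 of E16 cKO, the array with the lowest Nxph4 and Lpar1 of its group. Gbx2 was also higher in E13 cKO than in E13 embryo (10.99, 7.48, 10.38, 10.36 and 10.32 against 6.69 to 8.25), and array 2 was the lowest there too. Fitted on the E16 cKO and E16 embryo arrays only, 0 probes of the array were called, so the calls of Gbx2, Pou4f1, Ebf2 and Ebf3 ended there as well.

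Of 8 Cajal-Retzius genes 6 were tested, and 2 rose in E16 cKO, against 0.206% of all genes. These were Ebf3, 6.76-fold (adjusted p = 0.011), and Ebf2, 3.19-fold (adjusted p = 0.011), which 2 of 5 E16 embryo arrays held above background. At E13 0 of the 6 were called, and the median log2 change over the 6 was -0.26, against 0.21 at E16. Ebf3, although not called, gave 14.08, 11.49, 14.08, 13.76 and 14.15 in E13 cKO, against 11.23 to 12.01 in E13 embryo. Ebf2 gave 10.32, 9.48, 9.80, 10.34 and 10.58 in E13 cKO, against 8.92 to 9.85 in E13 embryo. Array 2 was the lowest of E13 cKO for both. The mean log2 signal of the thalamus list was 6.97 to 8.0 in E16 cKO arrays, against 6.82 to 7.20 in E16 embryo arrays, and that of the Cajal-Retzius list 7.21 to 8.56 against 6.93 to 7.98. Of 10 tested radial glia genes and 6 tested oligodendrocyte genes, 0 were called at either stage, a count near the share of all genes called. The oligodendrocyte genes Pdgfra and Mag passed the filter through the P2 arrays and say little here. The mean of the radial glia list was 7.32 to 7.82 in E16 cKO against 7.35 to 7.53 in E16 embryo, and 7.53 to 8.59 in E13 cKO against 7.36 to 7.79 in E13 embryo. The part of these structures and cells in the Nxph4 and Lpar1 results was not tested.

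**Figure D3:**
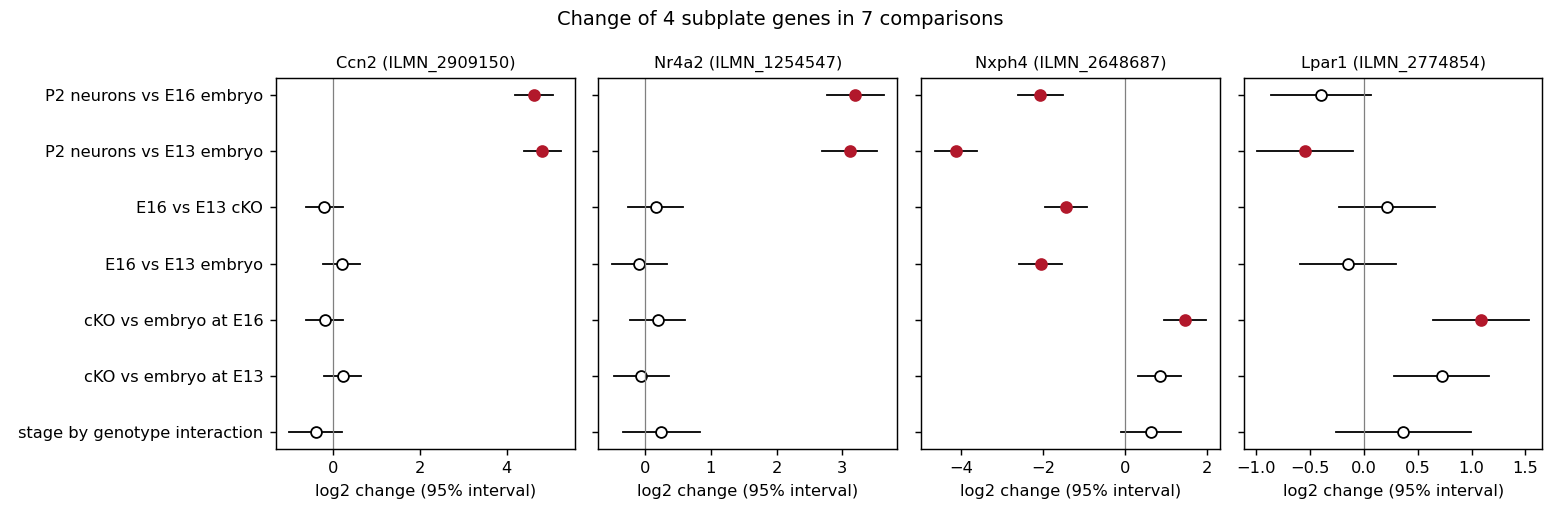
Log2 change and 95% interval of 1 probe for each of the 4 tested subplate genes in the 7 comparisons; filled points were called at an adjusted p under 0.05 and open points were not. Ccn2 and Nr4a2 were called only in the comparisons with the P2 neurons, and Nxph4 in all comparisons but the 1 between genotypes at E13 and the interaction.

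In the P2 neurons Nxph4 was lower than in the embryo arrays, while the Lpar1 difference depended on the probe, the stage compared and the scaling. Nxph4 averaged 6.30 ± 0.38 (SD, n = 5) in the P2 neurons, 4.20-fold below E16 embryo (log2 change -2.07 ± 0.26, adjusted p = 1.2e-07) and 17.6-fold below E13 embryo (-4.14 ± 0.25, adjusted p = 8.4e-14). The first Lpar1 probe gave 5.87, 6.54, 6.75, 6.37 and 6.68 in the P2 neurons and overlapped the embryo arrays. It was 0.40 ± 0.23 below E16 embryo on the log2 scale, which was not called (adjusted p = 0.120), and 0.55 ± 0.22 below E13 embryo (adjusted p = 0.026). The second probe, above background on 3 of 5 P2 arrays, was 0.82 ± 0.30 lower than in E16 embryo (adjusted p = 0.016) and 1.15 ± 0.28 lower than in E13 embryo (adjusted p = 7.8e-04).

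The direction of Lpar1 at P2 rested on the scaling. With each deposited table normalised on its own, the first probe was higher in the P2 neurons by 0.59 against E16 embryo, which was called (adjusted p = 0.023), and by 0.43 against E13 embryo, and the second probe differed by 0.06 and -0.28. When arrays were scaled to equal medians neither the first probe against E13 embryo nor the second against E16 embryo was called (log2 changes of -0.26 and -0.50). Leaving out array 1 of the P2 neurons, or array 2 or 3 of E13 embryo, also ended the call of the first probe, and leaving out array 1 or 5 of the P2 neurons that of the second against E16 embryo. The median change of all tested probes was -0.15 against E16 embryo and -0.14 against E13 embryo, and 6.4e-04 and -0.04 after median scaling. Ccn2 and Nr4a2 stayed higher and Nxph4 lower in the P2 neurons under each of these settings, with adjusted p of at most 4.6e-04 for Nr4a2 and Nxph4. Ccn2 passed the filter through the P2 arrays, so its p-values there are no support.

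Nr4a2, the nuclear receptor, was above background on all 27 arrays and was flat among the embryonic groups. Its probe (ILMN_1254547) gave 10.16, 10.14, 9.28, 9.56 and 9.65 in the P2 neurons, against 6.98, 6.95, 6.67, 6.09 and 6.13 in E16 embryo and 6.90, 6.14, 7.11, 6.69, 6.71 and 6.34 in E13 embryo. In E16 cKO it gave 6.37 to 7.17 and in E13 cKO 6.31 to 6.84. The P2 arrays did not overlap any embryonic group. Nr4a2 was 9.14-fold higher in the P2 neurons than in E16 embryo (log2 change 3.19 ± 0.21, adjusted p = 6.4e-13) and 8.63-fold higher than in E13 embryo (3.11 ± 0.20, adjusted p = 3.1e-13). Between genotypes its changes were 0.19 ± 0.20 at E16 (95% interval -0.22 to 0.61) and -0.06 ± 0.20 at E13 (95% interval -0.47 to 0.36).

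Because Nr4a2 also acts as an immediate early gene, its promoter and the other immediate early genes are given beside it. Windows of 250 bases before to 50 bases after a gene start were taken from RefSeq (GRCm38.p6), where 5 of the 7 subplate genes had 1 or more, 3 of them for Lpar1. The Nr4a2 window is chr2:57123954-57124253, minus strand, written 5′ to 3′. Capitals mark TGACG, the half-site of the cAMP response element, or its complement CGTCA, and TATAAA on the other strand, read here as TTTATA.
Nr4a2 promoter: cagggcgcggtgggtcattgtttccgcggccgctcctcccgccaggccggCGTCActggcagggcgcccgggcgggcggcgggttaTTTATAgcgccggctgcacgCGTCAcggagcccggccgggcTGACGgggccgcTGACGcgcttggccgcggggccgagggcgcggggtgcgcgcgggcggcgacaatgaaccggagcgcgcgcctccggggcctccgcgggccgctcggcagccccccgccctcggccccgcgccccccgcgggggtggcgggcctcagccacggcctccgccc

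The window holds 4 copies of TGACG over both strands, which begin 200, 144, 123 and 111 bases before the start. At least 1 copy is found in 20.8% of the 32851 promoter windows of the table, and 4 or more in 0.231%. The C and G content of the Nr4a2 window is 81.7%, against a median of 52.7% over all windows. TATAAA, which begins 164 bases before the start, is found in 13.6% of all windows. Among the other windows of the subplate genes only that of Tmem163 holds TGACG. The T-box core GGTGTGA, searched on both strands, is in 0 of the 7 windows of the subplate genes and in 3.98% of all windows, and these letters say nothing of T-box factors outside the windows.

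Immediate early genes rose in the P2 neurons with Nr4a2. Of 10 listed genes 8 were tested, and 7 rose relative to both E16 and E13 embryo, against 30.2% and 31.6% of all genes, with Egr2 tested through the P2 arrays. Fos averaged 12.53 ± 0.41 in the P2 neurons (SD, n = 5) against 7.99 ± 1.26 in E16 embryo (SD, n = 5), a 23.1-fold change (adjusted p = 1.2e-07). Egr2 was at least 9.51-fold higher than in E16 embryo, and Dusp1 did not pass the test (log2 change -0.26). Array means of the list ran from 9.75 to 10.50 in the P2 neurons, against 6.6 to 7.91 in E16 embryo and 6.37 to 6.80 in E13 embryo. Of 6 claustrum and endopiriform genes 5 were tested, and 4 rose and 1 fell relative to E16 embryo, against 30.2% risen and 41.3% fallen over all genes. Relative to E13 embryo 3 rose and 0 fell, against 31.6% and 41.9%. Rxfp1 was tested through the P2 arrays, so these counts are no support. Relative to E16 embryo Lxn, a carboxypeptidase inhibitor gene, rose 6.32-fold, and Ntng2, a netrin G gene, fell by 0.80 on the log2 scale. The part of cell sorting, of the claustrum and of stage in the Nr4a2 result was not tested.

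Over the 4 tested subplate genes, 2 rose (Ccn2 and Nr4a2) and 1 fell (Nxph4) in the P2 neurons relative to E16 embryo, against 30.2% risen and 41.3% fallen over all genes. Ccn2 passed the filter through the P2 arrays and so had to differ. Relative to E13 embryo 2 rose and 2 fell (Nxph4 and Lpar1), against 31.6% and 41.9%. With so large a share of all genes called, the counts alone set the subplate genes apart from other genes in neither comparison. The 2 comparisons share the P2 arrays, and E16 against E13 shares the embryo arrays with them.

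Cplx3 and Moxd1 stayed at background. The Cplx3 probe (ILMN_2683943) was above background on 0 of 27 arrays, with deposited signals from -25.5 to 7.88 in the P2 neurons and from -11.7 to 7.17 in the embryonic arrays. A first Moxd1 probe (ILMN_2737390) was above background on 0 of 27 arrays as well. The second (ILMN_2977492) had deposited signals of 18.4, 44.9, 146, 52.3 and 11.6 in the P2 neurons, against -8.14 to 11.4 in the embryonic arrays, and only array 3 of the P2 neurons, at 146, was above background. After normalisation the groups overlapped on that probe, with 4.84 and 4.87 in arrays 1 and 5 of the P2 neurons against 4.95 in array 1 of E16 embryo, and the probe did not pass the filter and was not tested. Array 3 was also the highest of the P2 arrays in the mean log2 signal of the interneuron (9.40 against 5.56 to 7.95 in the other 4), radial glia (9.39 against 7.03 to 8.38), oligodendrocyte (8.67 against 7.19 to 8.14) and meninges (8.06 against 6.73 to 7.33) lists, and their part in its Moxd1 signal was not tested. By RefSeq (GRCm38.p6), Moxd1 and Ccn2 are neighbours on chromosome 10 with no protein-coding gene between them, and the 2 differed on these arrays, Ccn2 being above background in all 5 P2 arrays and Moxd1 in 1.

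**Figure D4:**
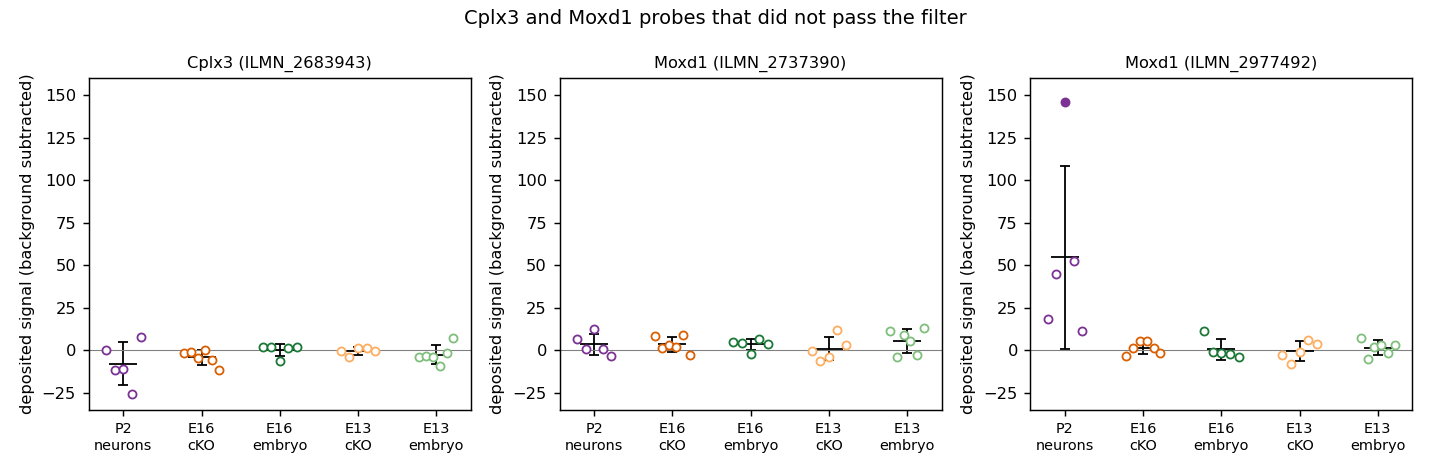
Deposited signal, after the background had been subtracted by the depositors, of the Cplx3 probe and the 2 Moxd1 probes by group, each point 1 array, filled where above background; the bars give the mean and SD. Only array 3 of the P2 neurons, at 146 on the second Moxd1 probe, was above background.

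Another list of subplate-enriched genes was set beside them. Of 17 listed genes 14 had a probe and 8 were tested, 3 of them (Abca8a, Drd1 and Kcnab1) through the P2 arrays, so these 8 do not stand for the list. Relative to E16 embryo 8 of the 8 rose, against 30.2% of all genes, and 7 rose relative to E13 embryo, against 31.6%. With 3 of the 8 tested through the P2 arrays, these counts are no support. Drd1, a dopamine receptor gene, was at least 8.95-fold higher in the P2 neurons than in E16 embryo. Kcnab1, a potassium channel subunit gene, averaged 8.60 ± 0.32 in the P2 neurons against 5.31 ± 0.41 in E16 embryo (SD, n = 5 each). In E16 embryo 1 of 5 arrays held it above background. Pls3, an actin-bundling gene, rose 8.10-fold (adjusted p = 7.0e-16) and Lypd1 7.22-fold (adjusted p = 2.1e-06).

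Between E16 and E13, 3 of the 8 fell and 0 rose in the embryo arrays, and 4 fell and 0 rose in the cKO arrays. Over all genes 11.7% fell in the embryo arrays and 13.4% in the cKO arrays, and 10.8% rose in each. Lypd1 fell 2.97-fold in the embryo arrays (adjusted p = 0.0075) and 4.52-fold in the cKO arrays (adjusted p = 3.4e-04), Zfpm2, a zinc finger cofactor gene, 2.04-fold and 2.64-fold (adjusted p = 6.2e-04 and 1.2e-05). Drd1, at background in every E16 array of both tables, was above background in 4 of 6 E13 embryo arrays and in 0 of 5 E13 cKO arrays, so no fold is given for it. Lypd1 and Zfpm2 thus had a lower level at E16 than at E13 and in the P2 neurons, unlike Nxph4, which was lowest in the P2 neurons. None of the 8 was called between cKO and embryo at E16 or at E13, where their median log2 changes were 0.05 and 0.11. Abca8a, Drd1 and Kcnab1 were above background on fewer than 5 embryonic arrays, so they say little of a difference between genotypes. Over all genes 0.206% were higher and 0.188% lower at E16, and 0.638% and 0.619% at E13. A count of 0 is near these shares.

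**Figure D5:**
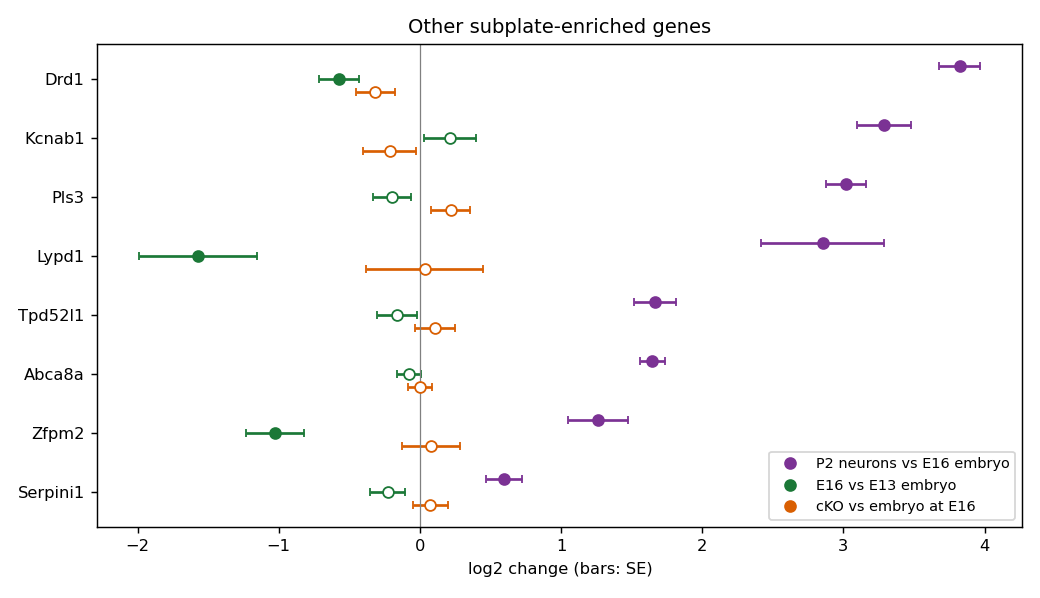
Log2 change of the 8 tested genes of another list of subplate-enriched genes in 3 comparisons, with SE bars; filled points were called and open points were not. All 8 were higher in the P2 neurons than in E16 embryo, 3 were lower at E16 than at E13, and none was called between genotypes at E16.

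Relatives of the subplate genes did not share 1 course. Of 19 paralogs 10 were tested, and relative to E16 embryo 6 rose and 3 fell in the P2 neurons, against 30.2% risen and 41.3% fallen over all genes. Of the 10, Ccn1, Ccn3, Nxph2 and Nxph3 passed the filter through the P2 arrays, so the count of risen paralogs is no support. Among the matrix proteins, Ccn1 was at least 2.31-fold and Ccn3 at least 2.16-fold higher. Among the neurexophilins, Nxph2 was at least 3.21-fold higher and Nxph1 4.21-fold higher (adjusted p = 3.1e-04) in the P2 neurons, where Nxph4 was lower. Nxph1 was 7.40-fold lower at E16 than at E13 in the embryo arrays (adjusted p = 2.9e-05), as Nxph4 was, with 2 of 5 E16 embryo arrays above background. Cplx1, a complexin of fast synapses, was above background on all arrays, unlike Cplx3, and rose 1.96-fold in the P2 neurons relative to E16 embryo (adjusted p = 5.9e-06). The receptor genes Lpar2, Lpar4 and Lpar6 fell in the P2 neurons, Lpar6 2.13-fold (adjusted p = 5.8e-05). No paralog was called between genotypes at either stage, a count near the share of all genes called. The 4 that passed through the P2 arrays were above background on fewer than 5 embryonic arrays and say little here.

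Of 18 partners of the subplate gene products 12 were tested, and 8 rose and 0 fell in the P2 neurons relative to E16 embryo, against 30.2% risen and 41.3% fallen over all genes. Of the 12, Plppr4, Stx3 and Slc30a3 passed the filter through the P2 arrays, so the count of risen partners is no support. Nrxn3, a neurexin and so of the family that binds neurexophilins, rose 10.2-fold (adjusted p = 8.2e-11). Plppr4, which regulates lysophosphatidic acid signalling at synapses, was at least 16.1-fold higher, Stx3, a syntaxin of the fusion machinery, at least 5.40-fold and Slc30a3, the zinc transporter of synaptic vesicles, at least 3.44-fold higher. No partner was called between genotypes at either stage, a count near the share of all genes called. The 3 that passed through the P2 arrays were above background on fewer than 5 embryonic arrays and say little here.

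Across the 5 group means, each taken relative to the gene's own mean, the genes most like Ccn2 were Slco2b1, Selenop and Flt1 for its first probe (root mean square differences of 0.060, 0.079 and 0.085 on the log2 scale) and Plppr4, Necab1 and Flt1 for its second (0.074 to 0.095). The closest to Nr4a2 were Rasgrp3 (0.051), Cd83 (0.066) and 1700019D03Rik (0.071). Nxph4 had no gene as close, with St18 first at 0.416, Akna at 0.422 and Ppp1r14a at 0.458. For Lpar1 the closest were Chodl (0.111), Igsf21 and Smarcd1 by the first probe, and Pard3 (0.162), Kcne1l and Sox2 by the second. These likenesses rest on 5 means, and those for Ccn2 and Nr4a2 mainly on the gap between the P2 and the embryonic arrays.

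In the order of its levels, Nxph4 ran from E13 cKO through E13 embryo, E16 cKO and E16 embryo to the P2 neurons. In that order the neighbours E13 cKO and E13 embryo, and E16 cKO and E13 embryo (adjusted p = 0.080), were not called different. Lpar1, by its first probe, ran from E16 cKO, 7.93 ± 0.53 (SD, n = 6), and E13 cKO, 7.71 ± 0.36 (SD, n = 5), to E13 embryo, 6.99 ± 0.33 (SD, n = 6), E16 embryo, 6.84 ± 0.19 (SD, n = 5), and the P2 neurons, 6.44 ± 0.35 (SD, n = 5). No pair of neighbours in that order was called different, while E16 cKO exceeded the P2 neurons by 1.48 (adjusted p = 1.0e-06 for the difference). For Ccn2 and Nr4a2 the P2 neurons stood above 4 embryonic groups, none of which was called different from another.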

How the data were processed

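Mouse RNA was measured on 27 Illumina BeadChip arrays in 5 groups, taken from the sample titles because the age given for E16 embryo repeats E13. Per the file headers, the deposited intensity values are non-normalised average signals with a detection p-value beside each. Some are negative (range -50.8 to 48266), which a signal takes only once its background is subtracted. The deposited log2 values of the series matrix cover 12377 probes and share 1 column median, 8.95. Signal columns name a group and not a sample, so arrays are numbered by column order, as names only. No column was left out.

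With R 4.3.3 and limma 3.58.1, signals were background corrected by normexp with negative controls inferred from detection p-values (offset 16), quantile normalised over all arrays and put on the log2 scale. Probes detected at p under 0.01 on 5 or more arrays, 20498 in number, were tested in 1 model with a mean per group and empirical Bayes moderation, and p-values were adjusted by Benjamini-Hochberg over all of them. The brightest tested probe stood for each of 10663 genes. By the platform annotation 34885 probes have 1 gene symbol, 18 several and 10378 none. A fold against a group with no array above background is a lower bound, with that group at its lowest signal above background. No 2 columns were identical (highest correlation between arrays 0.992). On simulated data for E16 cKO against E16 embryo with 20498 probes, 23, 44, 50 and 49 of 50 probes changed by 0.5, 1, 2 and 4 on the log2 scale were found, with 10 false among 176 calls. The simulated noise was independent, with the same spread in every group. In the data the spread differed, with an Nxph4 SD of 0.70 in E16 cKO and 0.20 in E16 embryo, so these rates need not hold there.

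The subplate genes, the other lists and the alternatives were chosen with earlier results of these data known. Genes named are all subplate genes, Eomes, and the 3 genes most like each subplate gene. Up to 4 called members of each list, those with the largest changes, are named too. Lpar2, Lpar4, Lpar6 and the arrays of Gbx2, Ebf2 and Ebf3 were chosen after their values were seen. Replicate numbers were not taken as pairs: correlations of the deviations of same-numbered samples ran from -0.219 to 0.509 over all pairs of groups. Between E16 cKO and E16 embryo they were 0.509, 0.436, 0.0623, 0.354 and 0.116, of which 1 missed the limit of 0.1 set for every pair. Many signal columns of cKO and embryo arrays of the same stage carry adjacent numbers. The labels do not say what these numbers mean, and a pairing by them was not tested.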

Additional observations from a re-analysis of the deposited data

Results flagged for a closer look

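Each value below lay apart from the other arrays of its group, the gap to the nearest being larger than Dixon's 95% limit for that number of arrays. Of 45 sets of 1 probe in 1 group, 6 were so, and chance gives about 5% of sets. Both Ccn2 probes stood apart in array 4 of E13 cKO, the highest of its group at 5.84 on the first probe and 6.28 on the second, and the array with the most endothelial and meningeal genes above background in that group. The first Lpar1 probe stood apart in array 3 of E16 cKO, the lowest of its group at 6.90, the array in which Gbx2 was at 4.95. The remaining 3 were below background: Cplx3 in array 6 of E13 embryo, highest at 4.79, Cplx3 in array 3 of E16 embryo, lowest at 4.49, and the second Moxd1 probe in array 1 of E16 embryo, highest at 4.95.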

How the results depend on the processing

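Counts of subplate genes called, of 4 tested, kept within 1.5 times under median scaling, separate normalisation of each table, no normexp, detection in every array of a group, an intensity trend with robust moderation, and 1 probe per gene. Without a filter on dim probes 1 gene was called between genotypes at E16 (Lpar1 lost, change 1.09), and with only the compared groups fitted 0. The series matrix holds 2 of the subplate probes, Nr4a2 and 1 of Lpar1; with its values the counts were 0 and 0 between stages (embryo, cKO), 1 between genotypes at E16 and 1 in each P2 comparison. Nxph4 and Ccn2 are not in it, and Lpar1 lost its call for P2 against E13 embryo there (-0.49, adjusted p = 0.0656). On those values a fit with the replicate block called 0 and 0 between stages, 0 between genotypes at E16 (Lpar1 1.17, adjusted p = 0.089) and 1 in each P2 comparison; the numbers are not taken as pairs. Leaving out array 2 of E13 cKO and array 3 of E16 cKO together, chosen after seeing the data, gave 2 at E13, and all-probe counts of 588 at E13, 334 at E16 and 62 for the interaction, against 219, 59 and 0. Leaving out 1 array at a time gave 0 to 2 between genotypes at E13, 1 to 2 at E16 and 3 to 4 for P2 against E13 embryo.

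With each table normalised on its own, the first Lpar1 probe reversed in the P2 comparisons, to 0.588 against E16 embryo and 0.433 against E13 embryo, and the second, to 0.0573 against E16 embryo; the cause was not tested. Uncalled values near 0 changed sign with 1 array left out: the second Ccn2 probe ran from -0.0482 to 0.316 between genotypes at E13 and from -0.317 to 0.0463 between cKO stages, and Nr4a2 from -0.156 to 0.0365 between genotypes at E13 and from -0.189 to 0.0351 between embryo stages. Over all probes, calls between genotypes at E13 (219) and at E16 (59) became 130 and 20 on the series matrix, 140 and 29 without a filter, 0 and 0 with only the compared groups, and were more at E16 with each table normalised on its own; leaving out 1 array gave 40 to 540 and 19 to 282, and 0 to 47 for the interaction. For the interaction (0) 2 were called without normexp and 2 with 1 probe per gene. Stage calls of 4186 and 4425 became 2745 and 2869 on the matrix, 2608 and 2626 with the replicate block there (96 and 6 between genotypes) and 2542 and 2772 with 1 probe per gene, and P2 calls of 14193 and 14665 became 8410 and 8687, 8418 and 8662, and 7668 and 7880, where fewer probes were tested. The number of arrays, and for Cplx3, Moxd1 and embryonic Ccn2 the signal over background, limit these results.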
